A study of Mus musculus with 12 samples.

Results

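Heat shock proteins were followed in RNA-seq data of duodenum and liver from mice treated with corticosterone (CORT) or vehicle (Veh). The group held 10 of the 55416 genes listed for each tissue: Hspa1a, Hspa1b, Hspa8, Hsph1, Dnajb1, Hspb1, Hsp90aa1, Hsp90ab1, Hspd1 and Hspe1. They were chosen by gene symbol, and all 10 passed the filter on low values in both tissues. In the liver Hspa1a passed it through the CORT mean alone. CORT, the main glucocorticoid of rodents, was injected subcutaneously every day for 8 weeks at 40 mg/kg into male C57BL6/J mice that were 8 weeks old at the start, and the Veh mice received the solvent alone. Each of the 4 groups (CORT and Veh duodenum, CORT and Veh liver) had 3 libraries, 12 in all, each made from 50 mg of frozen whole tissue and named below by its group and replicate number. The labels call them biological replicates but do not tie a duodenum library to a liver library of the same mouse. P-values measure only the spread between these samples. In whole tissue, fewer cells of a type and less RNA per cell cannot be told apart.

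Heat shock proteins are chaperones that hold, fold or release other proteins, and their cytosolic members are induced when unfolded proteins appear. The transcription factor HSF1 is kept inactive by chaperones in unstressed cells and, once released, binds heat shock elements, which are repeats of a short GAA unit in alternating orientation. In glucocorticoid target tissues the same machinery has another role, since HSP70, HSP90 and their partners bring the unliganded glucocorticoid receptor into the state that binds hormone.

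Hspa1a and Hspa1b, which encode the stress-inducible HSP70, are near copies, and the sequence in front of each holds 1 pair of such units. In the RefSeq windows of GRCm38.p6, which cover 250 bases before the start site and 50 after it, the genes differ at 4 of 300 positions, and 3 of these lie before the start site. Counted from the 5′ end of the window and with the Hspa1a base first, the differences are C44T, T47C, T249G and C276T. The stretches below are identical in both genes and hold 1 pair of units, printed in capitals. They lie at chr17:34972228-34972285 (minus strand) for Hspa1a and chr17:34959310-34959367 (minus strand) for Hspa1b, 129 to 72 bases before the start site.
Hspa1a: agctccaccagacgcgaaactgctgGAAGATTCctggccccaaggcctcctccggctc
Hspa1b: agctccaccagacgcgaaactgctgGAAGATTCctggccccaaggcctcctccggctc

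Pairs were searched as GAANNTTC or TTCNNGAA, patterns that read the same on both strands, and longer chains as further units in alternating orientation 2 bases apart, so that pairs within a chain overlap. Windows were held for 7 of the 10 genes, and 6 of the 7 had a pair, as did 17.0% of all 27025 genes with a window. Dnajb1 had none in these letters. The longest chain, of 4 units, lay between the mitochondrial chaperonin genes Hspe1 and Hspd1, which are read away from each other from start sites 216 bases apart, taking the inner of the RefSeq starts of Hspd1. Chains of 3 or more units were in the windows of 3 members (Hspe1, Hspd1 and Hsph1, whose chain of 3 lies after the start site and is not printed) and in 0.662% of genes. A chain of 3 or more units was in 198 of all 32851 windows (0.603%) and a chain of 4 units in 8 (0.0244%). The windows of Hspe1 and Hspd1 share the same chain of 4. In the annotation a longer stretch around this chain overlaps an exon, as does a longer stretch around the Hsph1 pair. The chain is shown on the Hspe1 strand, at chr1:55088053-55088082 (plus strand), together with the 1 Hsph1 pair that lies before the start site, at chr5:149636351-149636380 (minus strand) and both pairs of Hspb1 at chr5:135887777-135887854 (plus strand), again with the units in capitals.
Hspe1: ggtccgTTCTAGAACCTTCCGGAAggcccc
Hsph1: gggtagaatctTTCTCGAAggctcgagaag
Hspb1: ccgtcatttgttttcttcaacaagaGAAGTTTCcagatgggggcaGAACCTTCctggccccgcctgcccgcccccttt
A match is a description of letters and not of a bound site. Among the 7 genes with a window, the pair with the longest chain had the smallest differences between libraries, as given below. Whether the motifs bear on the RNA was not tested.

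Before any group difference, 2 libraries have to be named. All 10 heat shock genes had their highest duodenum value in CORT2 and their highest liver value in CORT3. Over all genes tested, CORT2 was the highest of the 6 duodenum libraries for 25.5%, and CORT3 the highest of the 6 liver libraries for 21%. The 3 CORT libraries also kept one order for all 10 genes. In the duodenum it was CORT2, then CORT1, then CORT3, a full order held by 13.1% of all genes tested. In the liver it was CORT3, then CORT1, then CORT2 (18.2%). Both shares include the high library as the first of the 3. The 10 heat shock genes together made up 0.420% of all TPM (the deposited unit, a relative transcript abundance per length) in duodenum CORT2, against 0.153% to 0.217% in the other 5 libraries. In liver CORT3 they made up 0.371%, against 0.118% to 0.181%. These libraries were noticed in the heat shock genes themselves, so the counts describe the pattern and do not test it, and each member's difference between groups is given with and without them.

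**Figure D1:**
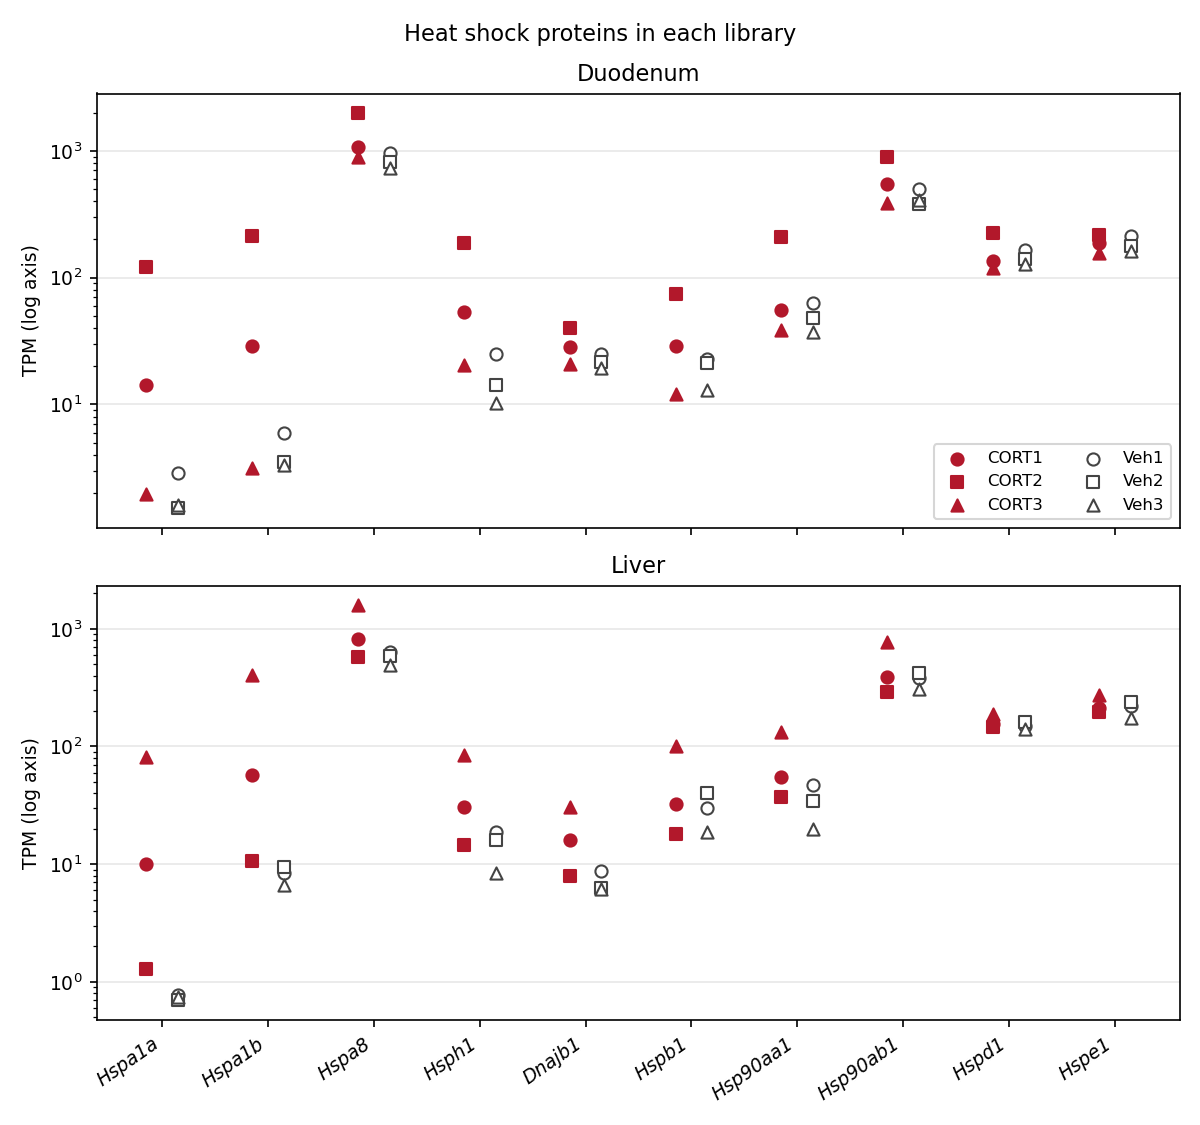
TPM of the 10 heat shock proteins (log axis) in each library of duodenum and liver, with filled red symbols for CORT, open symbols for Veh and 1 symbol shape per replicate number. Duodenum CORT2 and liver CORT3 are the highest symbols for all 10 genes, from 30.75 TPM for Dnajb1 in the liver to 1979.95 TPM for Hspa8 in the duodenum.

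In Veh mice the constitutive chaperones were by far the most abundant. In the Veh duodenum Hspa8, the constitutive cytosolic HSP70 (HSC70), stood at 835 ± 111 TPM (SD, n = 3) and Hsp90ab1, the constitutive cytosolic HSP90, at 429 ± 61.6 TPM. The mitochondrial chaperonin genes Hspe1 and Hspd1 followed at 185 ± 25.4 and 145 ± 19.2 TPM, and their ranges overlapped. Below them lay Hsp90aa1, the inducible HSP90, at 49.6 ± 13.1 TPM, and then Dnajb1, Hspb1 and Hsph1 between 16.5 and 22.0 TPM with overlapping ranges. Hspa1b at 4.26 ± 1.43 TPM and Hspa1a at 2.00 ± 0.754 TPM were the lowest.

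The Veh liver had the same leading genes in the same order. Hspa8 was at 573 ± 71.8 TPM, Hsp90ab1 at 367 ± 57.6 TPM, Hspe1 at 210 ± 32.2 TPM and Hspd1 at 150 ± 10.4 TPM. Hspa1a was again the lowest, at 0.743 ± 0.0404 TPM. Hspa1b (8.12 ± 1.37 TPM) and Dnajb1 (7.05 ± 1.46 TPM) were neighbours whose ranges overlapped.

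The inducible HSP70 genes spanned the widest range of all 10. In the duodenum Hspa1a was at 14.12, 121.26 and 1.96 TPM in CORT1, CORT2 and CORT3 and at 2.87, 1.53 and 1.60 TPM in Veh1, Veh2 and Veh3. Hspa1b was at 29.09, 211.43 and 3.16 TPM in CORT and at 5.91, 3.52 and 3.35 TPM in Veh. CORT2 was thus far above all other libraries, CORT1 was above every Veh library, and CORT3 lay within the Veh range for Hspa1a and below it for Hspa1b. The groups overlapped for both genes.

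In the liver Hspa1a was at 9.94, 1.28 and 82.03 TPM in CORT1, CORT2 and CORT3 and at 0.78, 0.70 and 0.75 TPM in Veh1, Veh2 and Veh3. Hspa1b was at 57.15, 10.67 and 408.73 TPM in CORT and at 8.34, 9.37 and 6.65 TPM in Veh. Here every CORT library was above every Veh library for both genes, though CORT2 only slightly, and CORT3 stood far above the rest. These were 2 of the 10 genes, against 32.2% of all liver genes tested whose groups did not overlap in either direction. In the duodenum the groups overlapped for all 10 genes, while 26.4% of genes tested had groups apart.

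Differences between CORT and Veh were tested on log2(TPM + 1), which understates the change of low genes, with limma and Benjamini-Hochberg adjustment over all genes tested. Hspa1a was 2.58 higher in CORT duodenum (95% interval -0.23 to 5.39, adjusted p = 0.297) and 2.87 higher in CORT liver (0.18 to 5.56, adjusted p = 0.170). For Hspa1b the differences were 2.54 (-0.42 to 5.50, adjusted p = 0.326) and 2.85 (0.19 to 5.51, adjusted p = 0.169). Neither gene passed the threshold in either tissue, and the intervals left room for differences from about none to very large ones. Hspa1a was tested in the liver through its CORT mean of 31.1 TPM, carried by CORT3 at 82.03 TPM. Its Veh mean of 0.743 TPM was under the filter of 1 TPM.

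Because Hspa1a and Hspa1b share reads, their sum is the firmer value. In the annotated transcripts, 38.1% of the 150-base stretches of Hspa1a-201 also occur in Hspa1b-201, and 40.5% the other way round. The sum was at 43.21, 332.69 and 5.12 TPM in CORT duodenum against 8.78, 5.05 and 4.95 TPM in Veh duodenum. In the liver it was at 67.09, 11.95 and 490.76 TPM in CORT against 9.12, 10.07 and 7.40 TPM in Veh. CORT2 of the duodenum was 7.70 times the next highest library and CORT3 of the liver 7.32 times. The summed gene differed by 2.67 in the duodenum and 2.95 in the liver on the log2(TPM + 1) scale, with limma adjusted p-values of 0.313 and 0.165. The exact permutation test gave a two-sided p of 0.2 in the duodenum and 0.1 in the liver, the latter being the smallest that 3 libraries against 3 allow.

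The liver result changed with the libraries used. Without liver CORT2, the CORT library with the lowest value for all 10 genes, Hspa1a and Hspa1b passed the threshold with differences of 4.11 and 4.09 (limma adjusted p = 0.0489 and 0.0460). Leaving out the lowest CORT library can only raise such a difference, so this call is not support for one. Without liver CORT3 the differences fell to 1.52 and 1.53 and did not pass. In the duodenum they were 1.19 and 1.12 without CORT2.

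Hspa8 followed the same order of libraries with a much smaller span. It was at 1082.25, 1979.95 and 890.70 TPM in CORT1, CORT2 and CORT3 of the duodenum and at 956.02, 812.44 and 736.97 TPM in Veh. In the liver the CORT values were 822.32, 573.45 and 1580.31 TPM and the Veh values 636.70, 587.23 and 495.24 TPM. The groups overlapped in both tissues, and the high library was 1.83 times the next in the duodenum and 1.92 times in the liver. The differences on the log2 scale were 0.58 (-0.13 to 1.28) in the duodenum and 0.67 (-0.16 to 1.49) in the liver, with limma adjusted p-values of 0.343 and 0.276, and 0.24 and 0.27 without the high library.

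Hsph1 encodes HSP110, a relative of HSP70 that exchanges its nucleotide. In the duodenum it was at 53.96, 188.42 and 20.35 TPM in CORT1, CORT2 and CORT3 and at 24.81, 14.34 and 10.31 TPM in Veh. Its liver values were 30.76, 14.60 and 84.63 TPM in CORT and 18.61, 16.09 and 8.36 TPM in Veh. The lowest CORT library lay within the Veh range in both tissues. Hsph1 was the only member with an unadjusted p under 0.05 in the duodenum, with a difference of 1.88 (0.12 to 3.64, limma adjusted p = 0.232), and the liver difference was 1.25 (-0.17 to 2.67, adjusted p = 0.239). Without the high library the differences were 1.06 and 0.60.

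Dnajb1 encodes HSP40, the J-domain partner that delivers substrates to HSP70. In the duodenum it was at 28.29, 40.08 and 20.81 TPM in CORT and at 25.10, 21.61 and 19.39 TPM in Veh, a narrow spread in which CORT2 was 1.42 times the next library. In the liver it was at 16.06, 8.0 and 30.75 TPM in CORT and at 8.74, 6.29 and 6.13 TPM in Veh, so that CORT1 and CORT3 lay above every Veh library and CORT2 among them. The difference was 0.37 (-0.19 to 0.94) in the duodenum and 1.09 (0.09 to 2.09) in the liver, with limma adjusted p-values of 0.433 and 0.164, and without the high library 0.14 and 0.64.

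Hspb1 encodes HSP27, a small heat shock protein that holds unfolded proteins without ATP. It was at 28.66, 73.78 and 12.19 TPM in CORT duodenum and at 22.79, 21.43 and 13.03 TPM in Veh duodenum. Liver values were 32.73, 18.18 and 100.43 TPM in CORT and 29.85, 40.31 and 18.78 TPM in Veh. The high library was 2.57 times the next in the duodenum and 2.49 times in the liver, while the lowest value of all 6 was also a CORT library in both tissues. Without the high library the difference went from 0.66 to 0.02 in the duodenum and from 0.46 to -0.21 in the liver.

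Of the cytosolic HSP90 genes, Hsp90aa1 varied more than Hsp90ab1. Hsp90aa1 was at 55.51, 210.57 and 38.89 TPM in CORT duodenum and at 63.39, 48.03 and 37.38 TPM in Veh duodenum. In the liver it was at 54.79, 36.88 and 132.43 TPM in CORT and at 47.18, 34.56 and 20.02 TPM in Veh. Apart from CORT2, the CORT values of the duodenum lay within the Veh range, and without CORT2 the difference of 0.66 became -0.06. In the liver the difference was 0.99 (-0.18 to 2.16, limma adjusted p = 0.257) and 0.48 without CORT3.

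Hsp90ab1 was at 544.86, 899.70 and 388.90 TPM in CORT duodenum and at 498.06, 380.07 and 408.30 TPM in Veh duodenum. Liver values were 391.50, 289.96 and 771.10 TPM in CORT and 379.54, 418.10 and 304.83 TPM in Veh. The high libraries were 1.65 and 1.84 times the next, and the other CORT libraries lay in or near the Veh range. The differences were 0.43 (-0.28 to 1.14) and 0.28 (-0.53 to 1.10), which became 0.11 in the duodenum and -0.11 in the liver without the high library.

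The mitochondrial chaperonin HSP60 (Hspd1) and its lid HSP10 (Hspe1) moved least. Hspd1 was at 134.64, 225.57 and 119.60 TPM in CORT duodenum against 166.15, 141.25 and 128.31 TPM in Veh, and at 155.26, 147.25 and 189.03 TPM in CORT liver against 148.99, 161.36 and 140.67 TPM in Veh. Hspe1 was at 187.27, 218.38 and 156.29 TPM in CORT duodenum against 212.44, 179.03 and 162.53 TPM in Veh, and at 213.71, 197.48 and 271.62 TPM in CORT liver against 220.60, 236.41 and 174.44 TPM in Veh. The same libraries were highest, but by a small margin, since duodenum CORT2 exceeded the next library 1.36 times for Hspd1 and 1.03 times for Hspe1, and liver CORT3 1.17 and 1.15 times. The differences between groups were 0.09 (-0.50 to 0.68) and 0.02 (-0.39 to 0.42) in the duodenum and 0.12 (-0.21 to 0.45) and 0.11 (-0.31 to 0.53) in the liver. Without the high library they were -0.19 and -0.10 in the duodenum and 0.01 and -0.02 in the liver.

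In total, 0 of the 10 heat shock genes passed the threshold in limma, set at an adjusted p up to 0.05 together with more than a 1.5-fold change, in either tissue, with adjusted p-values from 0.232 to 0.970 in the duodenum and from 0.164 to 0.731 in the liver. The share of all genes that passed was 2.15% in the duodenum (292 of 13607) and 6.92% in the liver (810 of 11699). At an unadjusted p under 0.05 the count was 1 in the duodenum (Hsph1) and 3 in the liver (Hspa1a, Hspa1b and Dnajb1), beside 19.2% and 25.9% of all genes. The mean was higher in CORT for all 10 genes in both tissues. Their median difference was 0.62 in the duodenum and 0.83 in the liver, where the median over all genes was -0.01 and 0.08. Without the high library the median became 0.13 in the duodenum and 0.37 in the liver, with 7 of 10 genes higher in CORT in each.

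**Figure D2:**
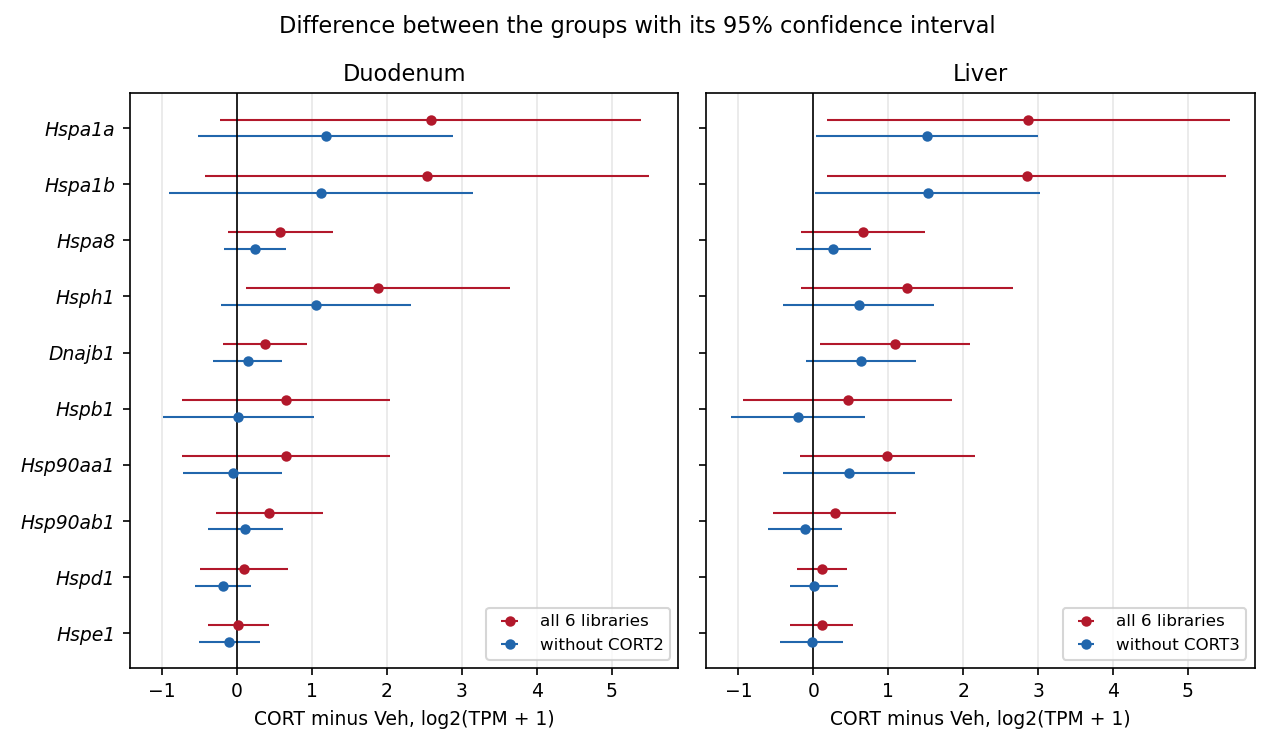
Difference between CORT and Veh on the log2(TPM + 1) scale for each heat shock protein, with the 95% confidence interval from limma, for all 6 libraries (red) and without duodenum CORT2 or liver CORT3 (blue). Hspa1a has the largest difference (2.58 in the duodenum and 2.87 in the liver) with a wide interval, and leaving out the high library brings it to 1.19 and 1.52.

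Whether the CORT difference was larger in one tissue was tested with a treatment by tissue term over all 12 libraries. This fit took the libraries as separate samples, although a mouse may have given both tissues, which the labels do not say. The term passed for 0 of the 10 heat shock genes in limma, against 3.61% of all genes, and no member had an unadjusted p under 0.05. The intervals were wide for the inducible genes, since the liver minus duodenum difference for Hspa1a was 0.29 with an interval of -3.79 to 4.36. For Hspa8 it was 0.09 (-1.01 to 1.19).

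The excess of the high library over every other one was then set side by side in both tissues. At a limit of 1.5 times each of the other 5 libraries, 7 of the 10 heat shock genes were past it in duodenum CORT2 and 8 of 10 in liver CORT3, where 4.74% and 2.68% of all genes were. Dnajb1 was just under the limit in the duodenum, and Hspd1 and Hspe1 were under it in both tissues. Of 10500 genes tested in both tissues, 36 (0.343%) were past the limit in both, and 7 of these were heat shock genes. A further 5 of the 36 belonged to the chaperone lists, namely Hspa4l (an HSP110 relative), Dnaja1 and Dnaja4 (J-domain proteins), Stip1 (HOP, which links HSP70 to HSP90) and Ahsa2 (an activator of the HSP90 ATPase). Both the limit and the libraries were chosen after the values were seen.

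The order of the other CORT libraries was not the same in all of these partners. Dnaja1 was at 119.83, 339.03 and 100.38 TPM in CORT duodenum and 113.91, 84.67 and 97.69 TPM in Veh, and at 188.52, 129.54 and 317.33 TPM in CORT liver and 111.91, 93.91 and 74.17 TPM in Veh. Its CORT libraries kept the order of the heat shock genes in both tissues. Hspa4l was at 3.39, 13.51 and 2.59 TPM in CORT duodenum and 3.60, 3.26 and 1.82 TPM in Veh, and at 3.19, 3.47 and 8.17 TPM in CORT liver and 3.63, 4.12 and 2.83 TPM in Veh, so that liver CORT1 was below CORT2. Ahsa2 was at 20.63, 40.24 and 17.28 TPM in CORT duodenum, all above Veh (9.77 to 10.28 TPM), but in the liver CORT1 and CORT2 (14.60 and 11.54 TPM) lay within the Veh range of 10.22 to 19.45 TPM and CORT3 was at 33.48 TPM.

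**Figure D3:**
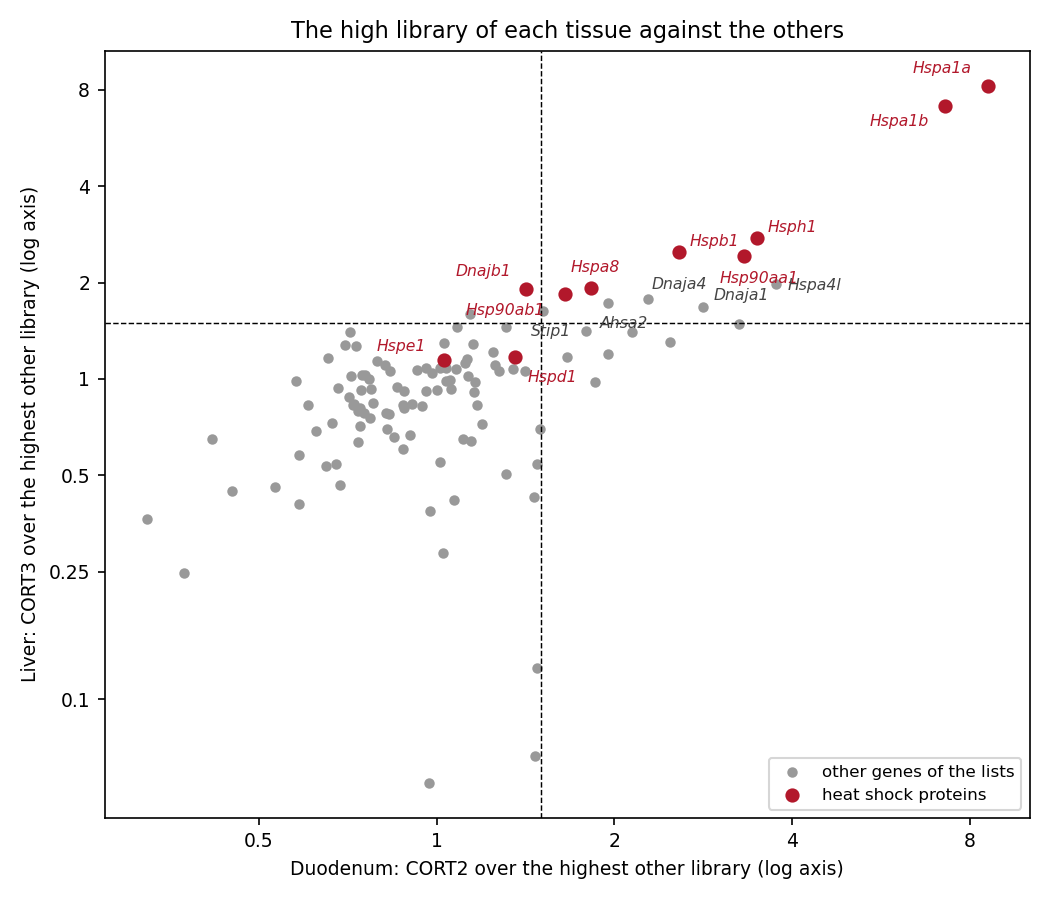
Ratio of duodenum CORT2 (x axis) and liver CORT3 (y axis) to the highest of the other 5 libraries of the tissue, both on log axes, for the 10 heat shock proteins (red) and 103 other genes of the pathway lists (grey), with dashed lines at 1.5. Hspa1a (8.59 and 8.25) and Hspa1b (7.27 and 7.15) lie at the upper right, and 7 red points are past both lines.

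The genes most like the HSP70 pair were ranked by the Pearson correlation of log2(TPM + 1) with the sum of Hspa1a and Hspa1b over the 12 libraries, after the mean of each tissue was subtracted. Among 10498 genes, the first 2 were heat shock genes themselves, Hspa8 (r = 0.969) and Hsph1 (0.960). The 5 nearest other genes were Fbxo30 (0.951), Ube3a (0.951), Dnaja1 (0.950), Ahsa1 (0.934) and Xk (0.931). Hsp90ab1 (0.920), Hsp90aa1 (0.916), Dnajb1 (0.911) and Hspb1 (0.893) ranked 12, 14, 16 and 31. Hspd1 (0.773) and Hspe1 (0.703) ranked 308 and 627. The libraries are shared by all these values and a few of them carry most of the spread, so the correlations are a description.

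The wider chaperone network, 94 genes in 10 lists that exclude the 10 above, was measured in the same fits. In the duodenum 2 of 88 tested genes rose and 0 fell, a share of 2.27%. In the liver 10 of 85 rose and 1 fell, a share of 12.9%. Over all genes the shares past the threshold were 2.15% and 6.92%. Most of the liver calls rested on single libraries or settings, since 3 of the 11 (Fkbp5, Clpx and Dnaja3) held in every fit that left out 1 library, and 3 each without CORT3, with the replicate block and with no filter. In the duodenum both calls held without CORT2, and 1 of the 2 (Fkbp5) in every fit that left out 1 library, with the replicate block and with no filter. For each gene that rose, every CORT library was above every Veh library of the tissue. Fkbp5, the HSP90 co-chaperone that glucocorticoids induce, was at 379.08, 280.69 and 251.83 TPM in CORT duodenum against 14.04, 8.68 and 23.33 TPM in Veh, and at 273.03, 249.24 and 220.88 TPM in CORT liver against 7.14, 12.73 and 19.51 TPM in Veh. It rose by 4.30 in the duodenum and 4.23 in the liver (limma adjusted p = 0.00450 and 0.00178). Every CORT library, those with the lowest Hspa1a included, was far above every Veh library of its tissue. In the list of 5 glucocorticoid-induced control genes, 3 passed the threshold in each tissue (Fkbp5 and Zbtb16 in both, Tsc22d3 in the duodenum and Sgk1 in the liver). Sgk1 in the duodenum (2.55, limma adjusted p = 0.0596) and Tsc22d3 in the liver (1.92, 0.0623) fell short. For both of these, every CORT library was above every Veh library. The Tsc22d3 call in the duodenum held in 3 of 6 fits that left out 1 library.

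Cdc37l1, a relative of the kinase co-chaperone CDC37, was the other gene that rose in both tissues, by 1.24 in the duodenum and 0.73 in the liver (limma adjusted p = 0.0171 and 0.0398). Its call held in 3 of 6 fits that left out 1 library in the duodenum and in 1 of 6 in the liver, where it was lost without CORT3 (0.66, adjusted p = 0.101). Of the 13 HSP90 co-chaperones these were the 2 that rose in the duodenum, and Ppp5c, a phosphatase that binds HSP90, was the third in the liver, with a rise of 0.65. Of the HSP90 family outside the cytosol, Hsp90b1 of the endoplasmic reticulum and Trap1 of mitochondria, 0 of 2 passed in limma in either tissue, with 0 at an unadjusted p under 0.05. Hsp90b1 was between 98.56 and 201.27 TPM over the duodenum libraries and between 163.27 and 253.16 TPM over the liver libraries.

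In the liver 1 of the 8 tested genes of the HSP70 family rose, Hspa2, a form best known from testis, from 0.91, 2.11 and 1.31 TPM in Veh to 6.34, 4.15 and 4.13 TPM in CORT. Of 23 DNAJ genes 1 rose in the liver, Dnaja3, the mitochondrial J-domain protein, from between 41.24 and 41.97 TPM to between 89.96 and 101.02 TPM (1.18 on the log2 scale, limma adjusted p = 0.00347). In the mitochondrial list of 6 genes Clpx, the unfoldase of the ClpXP protease, rose by 1.48 (adjusted p = 0.00702), from between 25.67 and 30.60 TPM to between 63.07 and 97.42 TPM. The mitochondrial members Hspd1 and Hspe1 in the same libraries differed by 0.12 and 0.11.

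Bag3, a nucleotide exchange factor of HSP70 in selective autophagy, rose by 1.20 in the liver (limma adjusted p = 0.0453), and its small heat shock protein partner Hspb8 rose by 0.91 (adjusted p = 0.0496). Neither call held without CORT3 (0.92 and 0.72, adjusted p = 0.0661 and 0.0903). Bag3 was at 27.07, 17.63 and 39.43 TPM in CORT liver, in the same order as the heat shock genes, against 10.19 to 11.58 TPM in Veh. Of 10 other HSF1 targets 2 rose in the liver, Ubb, a polyubiquitin gene, by 0.67 and Zfand2a, an arsenite-inducible proteasome partner, by 0.84. None of the 8 subunits of the cytosolic chaperonin TRiC passed in limma in either tissue, with 0 at an unadjusted p under 0.05. In the duodenum 0 of the genes tested in the HSP70, exchange factor, DNAJ, small heat shock protein, mitochondrial, heat shock factor and HSF1 target lists passed, with 0, 3, 4, 0, 1, 0 and 2 genes at an unadjusted p under 0.05.

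The RNA of the transcription factor itself showed no clear difference between the groups, and the activity of the protein was not measured. Hsf1 was at 10.57, 10.07 and 11.90 TPM in CORT duodenum and 13.32, 10.67 and 10.09 TPM in Veh duodenum. In the liver it was at 9.09, 8.27 and 9.37 TPM in CORT and 7.21, 8.46 and 7.64 TPM in Veh. Duodenum CORT2, the library with the highest Hspa1a, had the lowest Hsf1, though nearly level with Veh3 (10.07 and 10.09 TPM). Liver CORT3 had the highest Hsf1 by a small margin. The limma difference was -0.06 (-0.40 to 0.29) in the duodenum and 0.18 (-0.11 to 0.47) in the liver. Hsf4, a low-expressed relative, was the 1 heat shock factor past the threshold, and it fell by 0.79 in the liver (adjusted p = 0.0365).

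**Figure D4:**
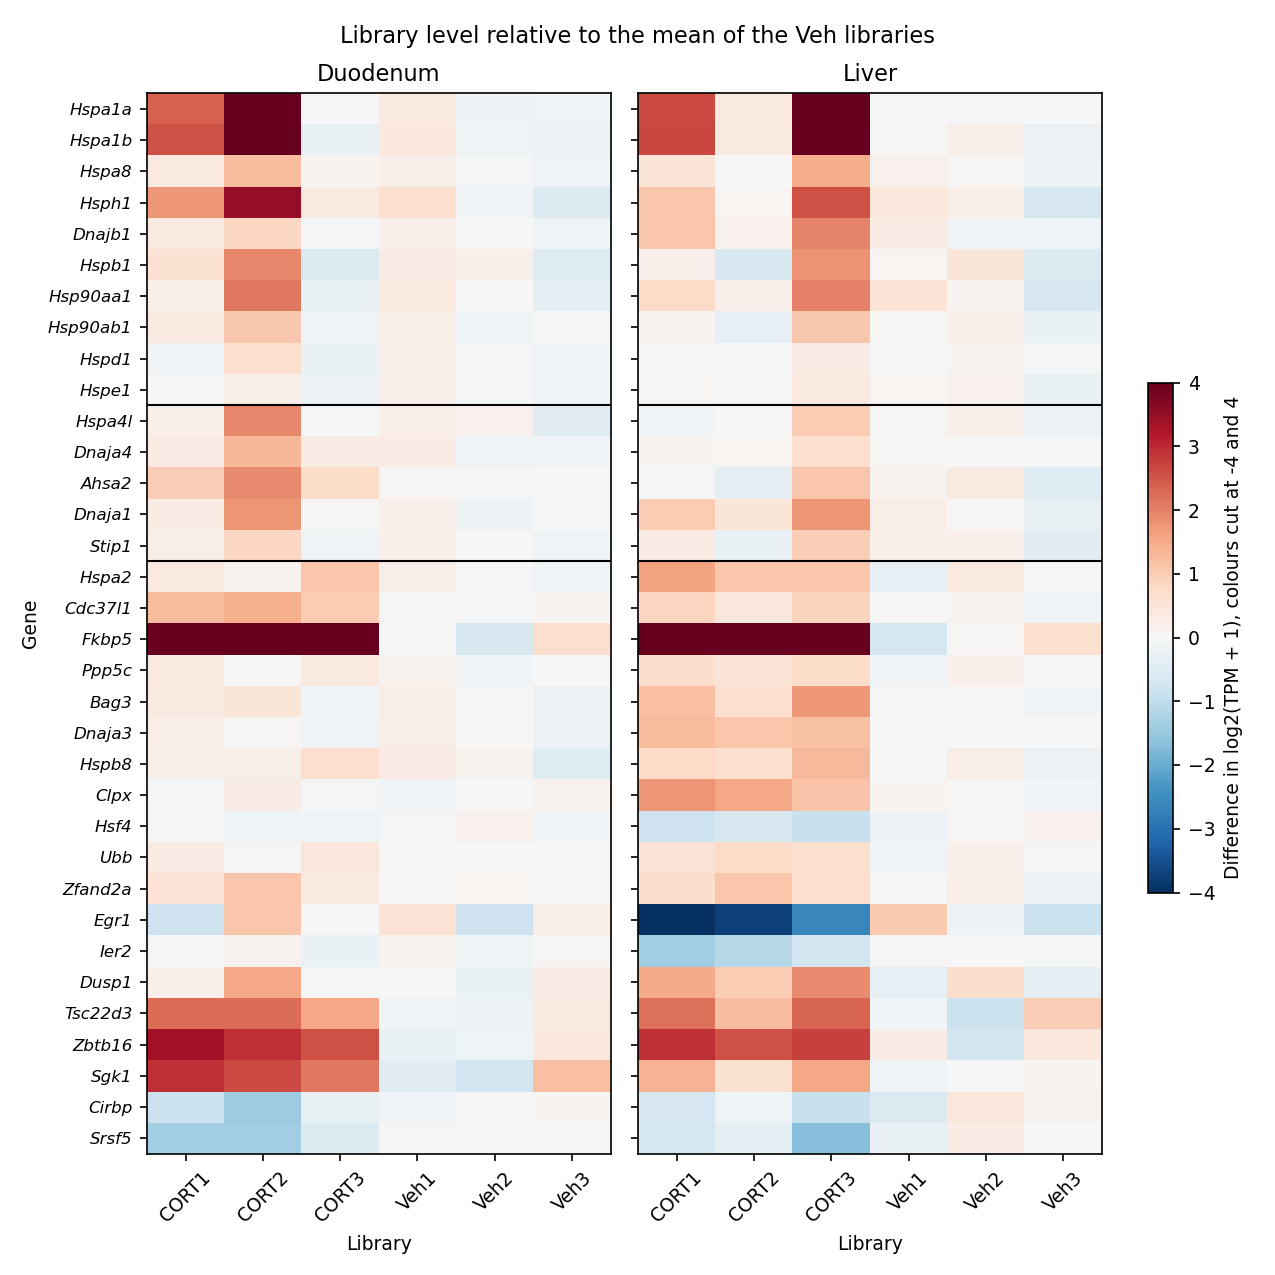
Level of each gene in each library as the difference in log2(TPM + 1) from the mean of the 3 Veh libraries, for the 10 heat shock proteins (top), the 5 other chaperone genes past 1.5 times in both high libraries (middle), and the list genes past the threshold in either tissue with Cirbp and Srsf5 (bottom). Red is higher and blue lower, with colours cut at -4 and 4. The top and middle blocks are darkest in duodenum CORT2 and liver CORT3, whereas Fkbp5 is dark in all CORT libraries.

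Of the 3 genes of the cold-inducible list, 2 had their lowest values in the same libraries. Cirbp, the cold-inducible RNA-binding protein, was at 11.87, 7.81 and 18.20 TPM in CORT duodenum and 20.57, 22.53 and 24.21 TPM in Veh, and at 7.46, 10.85 and 6.27 TPM in CORT liver and 7.99, 17.12 and 14.00 TPM in Veh. Srsf5, a splicing factor, was at 72.16, 72.08 and 128.83 TPM in CORT duodenum against 185.52 to 193.35 TPM in Veh, and at 68.72, 87.45 and 34.06 TPM in CORT liver against 92.54 to 137.33 TPM in Veh. Of the 3 genes of this list, 2 had their lowest value in duodenum CORT2 and 2 in liver CORT3, where 25% and 16.6% of all genes did. For Srsf5 duodenum CORT2 was level with CORT1. The third gene, Rbm3, was lowest in CORT1 in both tissues. Its values were 65.58, 80.25 and 86.46 TPM in CORT duodenum, all below Veh (101.04 to 137.29 TPM). In the liver they were 10.30, 33.12 and 13.47 TPM in CORT against 21.09 to 31.94 TPM in Veh, so that CORT2 was the highest library. None of the 3 passed in limma, with 3 at an unadjusted p under 0.05 in the duodenum and 1 in the liver. The differences of Srsf5 were -1.10 and -0.92 (adjusted p = 0.0685 and 0.151).

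Immediate early genes were fixed as a list to set beside the heat shock genes. In the duodenum 0 of 13 passed in limma, with 1 at an unadjusted p under 0.05. In the liver Dusp1, a phosphatase that glucocorticoids induce, rose by 1.48 (adjusted p = 0.0480, and 1.27 with 0.109 without CORT3), while Egr1 and Ier2 fell by 3.57 and 1.11 (adjusted p = 0.0185 and 0.0164). Dusp1 was at 77.89, 54.38 and 101.28 TPM in CORT liver, which is the order of the heat shock genes. In the duodenum it was at 9.68, 25.99 and 8.05 TPM in CORT against 6.66 to 10.45 TPM in Veh.

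Other features of these libraries were checked with summed markers of 8 cell types. The tissues matched their labels, with enterocyte markers between 17969 and 34295 TPM in the duodenum and hepatocyte markers between 61238 and 95512 TPM in the liver, and 0 liver libraries above 43.0 TPM for pancreatic acinar genes. In the duodenum the acinar genes were at 44556 and 38160 TPM in Veh2 and Veh3 and at most 6706 TPM in the other 4, and removing them with rescaling left 0 members past the threshold. The erythrocyte list of 4 globin genes was the 1 list highest in duodenum CORT2 (705 TPM, 365 and 456 TPM in the other CORT libraries, 118 to 246 TPM in Veh). In liver CORT3 the lists of lymphocytes and macrophages (106 TPM, 39.6 to 71.4 TPM elsewhere) and of endothelial and stromal cells (175 TPM, 54.1 to 145 TPM elsewhere) were highest, while in the duodenum the first of these was lower in CORT (277 to 579 TPM) than in Veh (839 to 1045 TPM). Between the groups, the hepatocyte list in the duodenum was at 15810 to 21706 TPM in CORT and 8400 to 12367 TPM in Veh, the enterocyte list there was higher in every CORT library (29713 to 34295 TPM) than in Veh (17969 to 26725 TPM), and the enterocyte list in the liver was at 2993, 4109 and 726 TPM in CORT1, CORT2 and CORT3 and 257 to 359 TPM in Veh. A list sum does not show which of its genes carry it or that cells of that type were present. Fgb of the hepatocyte list was at 0 TPM in every duodenum library, and Alpi of the enterocyte list in every liver library. The part of the 8 lists in the heat shock values was not tested.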

How the data were processed

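Per the methods and the submitters' processing notes, the authors trimmed paired-end reads (SeqPrep, Sickle), mapped them to GRCm39 using HISAT2 in orientation mode, and used StringTie for assembly and RSEM for abundance. Tool versions and the annotation release are not given in the sources used here. The authors deposited TPM, rounded to 2 decimals, with a column for every library. TPM keeps no read number, so depth is unknown and no counting error is given.

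Values were analysed as log2(TPM + 1). A gene was tested if its mean reached 1 TPM in CORT or Veh. The limma package (version 3.58.1, in R 4.3.3) was applied to either tissue separately with a trended prior (lmFit, eBayes), and to all 12 libraries (14806 genes) for a treatment by tissue term. Adjusted p-values are limma's after Benjamini-Hochberg adjustment over all genes tested. A call needed 0.05 or less and, within a tissue, more than a 1.5-fold change. Single members were also compared by an exact two-sided permutation test. The fits were tested on simulated data.

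The members and lists were chosen with earlier results of these data known. Named were all members, list genes past the threshold (for lists with none, up to 2 with the smallest p), Fkbp5, and the 5 genes most like the HSP70 pair. Hspa4l, Dnaja1, Dnaja4, Stip1, Ahsa2, Hsf1 and Rbm3 were named after their values were seen, and not every gene of the rule is reported. Alternatives were a pseudocount of 0.1, no filter, median-ratio scaling, the HSP70 pair summed, acinar genes removed, the replicate number as a block, each library left out, and one fit of all libraries. Same-numbered CORT and Veh libraries of a tissue did not deviate together (correlations of -0.12 to 0.07), so the numbers were not taken as pairs. For the treatment by tissue term the block joined duodenum and liver libraries of the same treatment and number, a link the labels do not give. The deviations of those libraries correlated at -0.13 to 0.10. For duodenum CORT2 and liver CORT3, compared because the heat shock genes were highest in both, the value was 0.21. No other duodenum and liver libraries of unlike number were compared, so this value cannot show a link between the libraries. Promoter sequences are RefSeq's on GRCm38.p6, and Hspa1 transcripts are those of GENCODE for GRCm38. No windows were held for Hspa8, Hsp90aa1 and Hsp90ab1.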

Additional observations from a re-analysis of the deposited data

Results flagged for a closer look

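For 4 genes of the pathway lists the difference between CORT and Veh was not the same in both tissues by the treatment by tissue term of limma. Clpx differed by 1.43 more in the liver than in the duodenum on the log2(TPM + 1) scale (adjusted p = 0.00903), and in the duodenum it was between 18.21 and 23.82 TPM in CORT and between 17.64 and 21.50 TPM in Veh. Dnaja3 differed by 1.14 (adjusted p = 0.0117), with duodenum values of 30.23 to 40.94 TPM in CORT and 29.19 to 40.86 TPM in Veh. All 3 CORT livers were above all 3 Veh livers for both genes. For Egr1 the term was -3.65 (adjusted p = 0.0497), with liver values of 0.62, 1.59 and 4.65 TPM in CORT and 69.84, 28.72 and 17.88 TPM in Veh. For Ier2 it was -1.04 (adjusted p = 0.0370), with 11.20, 13.58 and 17.80 TPM in CORT liver against 32.38, 31.90 and 29.66 TPM in Veh liver. Clpx and Dnaja3 were called in 12 of 12 fits that left out 1 library, Egr1 in 2 and Ier2 in 3. The replicate block of this term takes same-numbered duodenum and liver libraries of a treatment as 1 mouse, which the labels do not say. With it the term was past the threshold for Clpx and Egr1 (limma adjusted p = 0.0451 and 0.0479) and not for Dnaja3 and Ier2 (0.0522 and 0.120). Egr1 was not called with a pseudocount of 0.1 (0.0671) or no filter (0.107), nor Ier2 with no filter (0.0606).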

How the results depend on the processing

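With all libraries, 0 members passed in either tissue or in the treatment by tissue term under a pseudocount of 0.1, no filter, median-ratio scaling, the HSP70 pair summed and the replicate block, and also without acinar genes (duodenum) and in one fit of all 12 libraries (both tissues). With an unadjusted p under 0.05, 1 member passed in the duodenum and 3 in the liver. Leaving out 1 library gave 0 members in the duodenum and 0 to 2 in the liver, the 2 being Hspa1a and Hspa1b without CORT2. The replicate block changed no member's call. Counts over all genes moved more. With no filter 52 genes passed in the duodenum and 283 in the liver, with the replicate block 62 and 307 (210 for the treatment by tissue term), in one fit 661 and 1286, and unadjusted 1395 and 1808. With 1 library left out they ranged from 66 to 237, from 247 to 831 and, for the treatment by tissue term, from 289 to 626.

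Directions of small differences turned when 1 library was left out: in the duodenum Hsp90aa1 (-0.060 to 1.14), Hspd1 (-0.19 to 0.27) and Hspe1 (-0.10 to 0.14), and in the liver Hspb1 (-0.21 to 1.00), Hsp90ab1 (-0.11 to 0.59) and Hspe1 (-0.023 to 0.21). Without acinar genes Hspe1 was at -0.018 in the duodenum. The liver minus duodenum term, called for no member, ranged from -1.06 to 1.69 for Hspa1a, -1.11 to 1.73 for Hspa1b, -0.31 to 0.43 for Hspa8, -1.38 to 0.20 for Hsph1, -0.86 to 0.44 for Hspb1, -0.18 to 1.05 for Hsp90aa1, -0.55 to 0.17 for Hsp90ab1, -0.15 to 0.30 for Hspd1 and -0.039 to 0.21 for Hspe1, and under median-ratio scaling it was -0.0034 for Hspa8 and -0.066 for Hspd1. Where no value shows it, the cause was not tested. Fkbp5 kept its call in 6 of 6 such fits in each tissue, Clpx and Dnaja3 in 6 of 6 in the liver, Egr1 in 4 and Ier2 in 2, while liver Bag3, Cdc37l1, Dusp1, Hspa2, Ppp5c, Sgk1, Ubb and Zfand2a kept it in 1 of 6 and Hsf4 and Hspb8 in 0. Those 10 also lost it with the replicate block and with no filter. Under median-ratio scaling Bag3 lost it (adjusted p = 0.0560), as did Ppp5c and Ubb, whose differences of 0.56 and 0.58 fell short of a 1.5-fold change. No numbers pair the libraries, and the depth behind a TPM value is unknown.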

Other observations

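The 36 genes that were at least 1.5 times every other library in both duodenum CORT2 and liver CORT3 held 24 that belong to no chaperone list. Cacybp, a partner of HSP90 and SGT1 in ubiquitin ligase complexes, exceeded the next library 3.35 times in the duodenum and 2.01 times in the liver. P4ha1, a subunit of the collagen prolyl hydroxylase, did so 2.44 and 2.73 times. Also among them were the chemokine receptor Cxcr4 (3.22 and 3.16 times), the G-protein regulators Rgs1 (2.44 and 5.30 times) and Rgs2 (1.84 and 2.70 times), the adhesion molecule Vcam1 (1.95 and 2.62 times) and the lymphatic and sinusoidal receptor Lyve1 (1.69 and 1.87 times). In the other direction, 15 genes were lower than every other library by 1.5 times or more in both, among them the circadian output gene Dbp (0.623 and 0.511 times the lowest other library) and the carbonic anhydrase Car3 (0.0755 and 0.353 times). These genes were picked for this pattern, and no test was made.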
